A study of Mus musculus with 2 samples.

Results

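The cells described here are Rag1-positive cells without transcripts of a γ V segment, found in a library of sorted fetal γδ T cells. They were chosen by measured values: a cell barcode of the TMREhi library with at least 500 genes detected belonged to the set if it held at least 1 UMI (unique molecular identifier, 1 counted transcript) of Rag1 and 0 UMIs over the 7 γ V genes Tcrg-V1, Tcrg-V3, Tcrg-V4, Tcrg-V5, Tcrg-V6, Tcrg-V7 and Trgv2. This selected 165 of 1025 TMREhi cells, or 16.1% (exact 95% binomial interval 13.9 to 18.5%). They were compared with the 641 TMREhi cells that held a γ V UMI and no Rag1 UMI, called γ V cells below. A further 57 cells held both kinds of transcript and 162 held neither. The study's material was wild-type C57BL/6 mouse thymus, taken at embryonic day 15, kept as lobes in culture for 2 days and left untreated. Immature CD24+ γδ T cells were sorted on TMRE, a dye drawn into mitochondria by their membrane potential, into the bright fraction (TMREhi) and the dim fraction (TMRElo), and each fraction gave 1 library of the 10x Chromium 5′ kit. No promoter-driven transgene or mutation is named in the labels, and the number of embryos pooled is not given. With 1 library and members chosen on the same cells' counts, all comparisons below are descriptions: no test was made, no p-value is given, and the intervals cover counting error only, not variation between animals or sorts. The intervals of CPM and of ratios count each UMI as independent, so they do not cover variation between cells either.

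In the thymus, T cell precursors cut and rejoin their receptor genes with the RAG1-RAG2 recombinase, first at the β, γ and δ loci and later at the α locus. Precursors of αβ T cells pass a checkpoint with a β chain paired to pre-Tα, the product of Ptcra, divide, and then carry CD4 and CD8 together as double-positive cells that express Rag1 again while they rearrange α genes. Cells that carry a γδ receptor instead switch the recombinase off, stay largely without CD4 and CD8, and take up effector programmes under factors such as Sox13, Maf and Runx3. The E proteins, encoded by Tcf3 and Tcf12, bind the E-box motif CANNTG and are central to early thymocyte genes, and Id proteins hold them in check.

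Rag1 lies on chromosome 2 at 101638282-101649501 (minus strand, GRCm38, GENCODE vM21 annotation) beside Rag2 at 101624718-101632529 (plus strand). Ptcra is at 46755663-46763712 and Satb1 at 51736187-51833290, both on the minus strand of chromosome 17, and Cd4 is at 124864692-124888221 on the minus strand of chromosome 6. The promoter windows of 3 of these label genes are shown because the recombinase gene defines the cells and the E protein genes were higher in them (values below). Each window runs from 250 bases before to 50 bases after the transcript start (RefSeq, GRCm38.p6), 5′ to 3′ on the gene's strand, with every E-box CANNTG in capitals. The motif was searched on both strands, on which it reads the same.
Rag1, chr2:101649483-101649782: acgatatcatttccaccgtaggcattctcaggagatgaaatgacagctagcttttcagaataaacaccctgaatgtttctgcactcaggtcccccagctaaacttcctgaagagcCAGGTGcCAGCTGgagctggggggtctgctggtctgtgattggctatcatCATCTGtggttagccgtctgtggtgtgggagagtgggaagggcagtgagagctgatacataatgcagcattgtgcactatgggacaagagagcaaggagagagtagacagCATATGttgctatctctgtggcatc
Ptcra, chr17:46763663-46763962: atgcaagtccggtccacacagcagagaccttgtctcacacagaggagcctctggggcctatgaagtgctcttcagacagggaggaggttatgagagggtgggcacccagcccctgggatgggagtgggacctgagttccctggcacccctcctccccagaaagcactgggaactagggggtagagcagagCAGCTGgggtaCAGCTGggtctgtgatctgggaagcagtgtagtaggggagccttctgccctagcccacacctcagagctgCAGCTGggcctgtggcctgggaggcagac
Satb1, chr17:51833241-51833540: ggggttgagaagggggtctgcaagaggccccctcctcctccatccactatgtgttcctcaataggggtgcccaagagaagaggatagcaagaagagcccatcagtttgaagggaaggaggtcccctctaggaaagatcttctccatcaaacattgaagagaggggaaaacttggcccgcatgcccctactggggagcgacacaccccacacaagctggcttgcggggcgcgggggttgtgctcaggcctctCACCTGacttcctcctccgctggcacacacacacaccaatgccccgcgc
The Rag1 window held 4 E-boxes, beginning 135, 128 and 85 bases before the start and at base 26 after it, and the Ptcra window held 3, all spelled CAGCTG. The Satb1 window held 1, spelled CACCTG. RefSeq lists 5 windows for Satb1 and 1 each for Rag1 and Ptcra, and the Satb1 window shown is the one nearest to the gene's start in GENCODE vM21; the others are not shown. Of 32851 promoter windows of the same length in the RefSeq table, 72.3% held at least 1 such motif and 17.6% at least 3, so a match in a window is common. It describes letters in these windows and no binding was measured.

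The values that selected the cells were low counts. Of the 165 cells, 48 held a single Rag1 UMI, 47 held 2, 26 held 3 and 44 held 4 or more, with a highest count of 9 and 466 Rag1 UMIs in all. On the other side of the rule, 13 Rag1-positive cells were left out by a single γ V UMI and another 13 by 2, whereas 18 held 6 or more γ V UMIs and the highest held 41. The TMRElo library held 0 such cells among 133 with at least 500 genes, which allows a share of up to 2.74% (exact upper limit), and 1 TMRElo cell held Rag1 together with γ V. The 2 libraries shared 0 barcodes.

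The Rag1-positive cells were shallow. Their UMI totals ran from 654 to 17626 with a median of 1188, against a median of 2478 in the γ V cells, 3187 in the cells with both transcripts and 1339 in those with neither. A rule that asks for 0 γ V UMIs takes up shallow cells more readily, so gene levels were compared after each cell had been thinned at random to 500 UMIs, a depth all 165 and all 641 cells reached. One UMI then stood for 12.1 CPM (counts scaled to an equal total) in the Rag1-positive cells and 3.12 in the γ V cells. The median mitochondrial share of UMIs was close in both, 13.8% and 14.2%, but only 30 Rag1-positive cells lay at or under 10%, against 250 γ V cells. Ribosomal protein genes gave a median of 4.65% of UMIs in the Rag1-positive cells and 8.44% in the γ V cells. Under 15% ribosomal protein UMIs lay 159 of the 165 (96.4%) and 387 of the 641 (60.4%), and values from these cells alone are given beside several of the lists below. Whether barcodes with so low a ribosomal share are intact cells cannot be told from the deposited counts, and this bears on nearly all of the Rag1-positive barcodes, which are called cells here only for having at least 500 genes. The part that ribosomal share and depth play in the other results was not tested beyond those values.

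**Figure D1:**
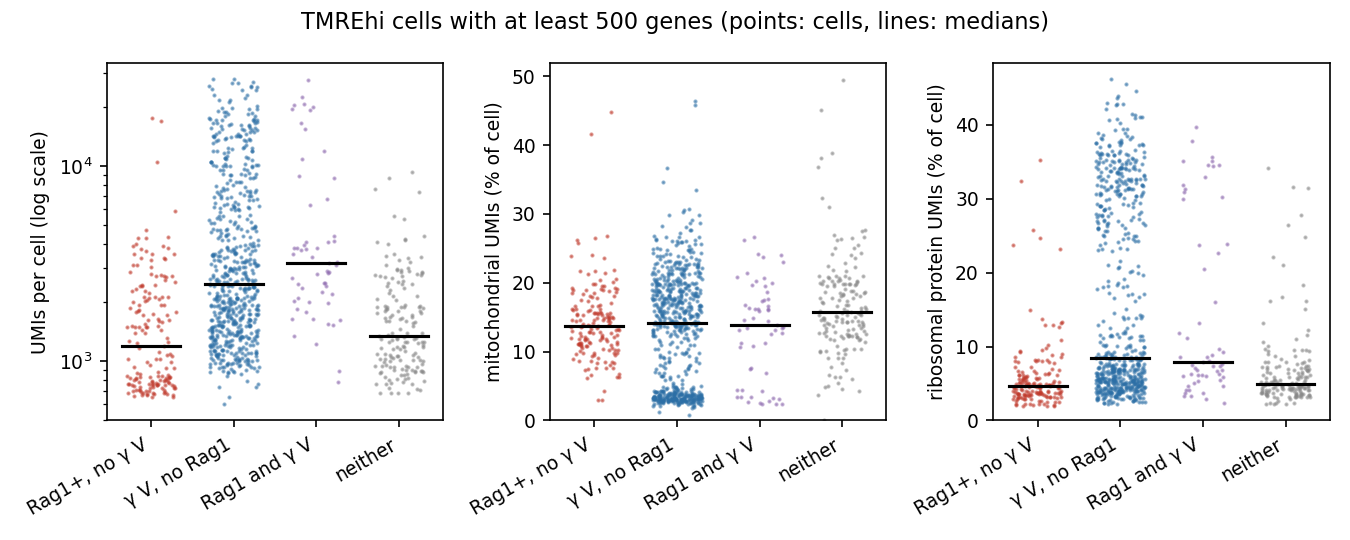
UMIs per cell (log scale), mitochondrial share and ribosomal protein share of UMIs in each cell of the 4 classes of TMREhi cells, with class medians as lines. The Rag1-positive cells without γ V have the lowest median depth (1188 UMIs), and nearly all of them sit in the band under 15% ribosomal protein UMIs, while the γ V cells fill 2 bands.

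Over 3913 genes with at least 20 thinned UMIs in both groups together, 567 (14.5%) were more than 2-fold higher in the Rag1-positive cells with a 95% interval excluding 1, and 429 (11.0%) were lower by the same rule. When mitochondrial and ribosomal protein genes were left out of the CPM totals, the counts were 417 higher and 472 lower, and with no thinning 2097 and 764. The median log2 ratio over the 3913 genes was 0.13. These shares and that median are the background against which the gene lists below are read. All lists were chosen with earlier results of these data known, so their counts are descriptions and not separate support. The lists also share genes. Tcf12 and Tcf3 are in the αβ lineage and E protein lists, Il7r in the γδ lineage and maturation lists. Bcl2 is in the maturation and survival lists, and Cd69 in the αβ lineage and receptor signalling lists. The minimum of 20 UMIs was summed over both groups. With 641 γ V cells and 165 Rag1-positive cells, it admitted genes high in the γ V cells more readily.

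Genes of the αβ lineage stood higher in the Rag1-positive cells. Of 29 list genes with enough UMIs, 20 were past 2-fold higher and 1 was lower, with a median log2 ratio of 1.61. The 20 include the label genes Cd4 and Satb1. Among cells under 15% ribosomal protein UMIs 17 of 26 were higher and 1 lower, median 1.44, and at the comparison of each cell with a γ V cell of nearest depth the median was 1.55.

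Cd4 had the highest ratio of the genes with at least 40 thinned UMIs, and the Cd8 genes were also among the 12 highest. Cd4, which encodes the MHC class II coreceptor, had 52 thinned UMIs in the Rag1-positive cells and 2 in the γ V cells, or 630.3 against 6.24 CPM, a ratio of 101 (interval 26.6 to 856). Before thinning, 72 of 165 Rag1-positive cells (43.6%) held a Cd4 UMI against 4 of 641 γ V cells (0.624%), which were deeper by median. The γ V cells are not known to lack Cd4, so the share that free RNA in the droplets could give was not measured. Cd8b1, the CD8 β chain, stood at 582 against 21.8 CPM (26.6-fold, 12 to 69.8), and Cd8a, the α chain, at 533 against 43.7 CPM (12.2-fold, 6.57 to 24.1). Both coreceptors were found in the same cells: 58 Rag1-positive cells (35.2%, 27.9 to 43.0%) held a UMI of Cd4 and of a Cd8 gene, 14 held Cd4 alone, 52 Cd8 alone and 41 neither. Among the γ V cells 1 of 641 held both. The cells with both coreceptors had a median of only 844.5 UMIs and those with neither one of 1720, so greater depth did not go with joint detection.

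Satb1, a chromatin organiser of thymocytes, stood at 4133 CPM in the Rag1-positive cells and 256 in the γ V cells (16.2-fold, 12.7 to 20.8), and 159 of the 165 cells held at least 1 UMI of it. Arpp21, a phosphoprotein gene of immature thymocytes, stood at 2642 against 193 CPM (13.7-fold, 10.3 to 18.4). Themis, needed for thymocyte selection, was 7.08-fold higher, and the T cell identity factors Bcl11b (1745 against 440 CPM, 3.97-fold) and Tcf7 (1176 against 474 CPM, 2.48-fold) were higher by less. Ets2 (10.7-fold), Ly6d (4.75-fold), Myb (3.02-fold), Runx1 (2.22-fold) and Patz1 (2.49-fold) were also past 2-fold. The single list gene lower was Cd69, an early activation marker, with 0 UMIs against 50, at least 4.29-fold lower against a floor of 3 UMIs. Lef1 (606 against 496 CPM) and the chemokine receptor gene Ccr9 (812 against 920.4 CPM) had intervals that held 1.

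In the ranking over all genes with at least 40 thinned UMIs, the highest after Cd4, Cd8b1, Satb1, Arpp21 and Cd8a were Ssbp2 (812 against 71.8 CPM, 11.3-fold), Aqp11 (an aquaporin, 400.0 against 37.4 CPM, 10.7-fold) and Atl2 (an atlastin of the endoplasmic reticulum, 461 against 46.8 CPM, 9.84-fold). Dntt, Abcc5 (9.06-fold), Rmnd5a (8.46-fold) and Ilvbl (7.77-fold) completed the 12 highest. Of these, Aqp11, Dntt and Rmnd5a also belong to the αβ lineage list.

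Of 7 recombination and repair genes that could be compared, the rule's own gene left out, 3 were higher in the Rag1-positive cells and 0 lower. Dntt, the terminal transferase that adds bases at receptor junctions, stood at 703 against 74.9 CPM (9.39-fold, 5.74 to 15.8). Dclre1c, which encodes the hairpin-opening nuclease Artemis, was 8.74-fold higher (3.62 to 23.2) and Xrcc6, the Ku70 end-binding protein, 3.88-fold (2.02 to 7.48). Of the 7 genes 6 had a ratio above 1 and 1 below it, and the median log2 ratio was 1.0. Among cells under 15% ribosomal protein UMIs 5 of 7 were higher, median 1.67, and among those with at most 10% mitochondrial UMIs 1 of 3 was, median 0.30. Rag2, the recombinase partner, had 10 thinned UMIs against 2 and fell under the filter of 20, as did Ptcra with 10 against 0. In the deposited counts Rag2 was detected in 27 of 165 (16.4%) against 13 of 641 cells (2.03%), and Ptcra in 31 of 165 (18.8%) against 19 of 641 (2.96%). Rag1 itself, at 2473 CPM, was set by the rule.

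Transcripts of the β chain constant genes were common in both groups and those of the γ and δ chains were not. A UMI of Trbc1 or Trbc2 was found in 145 of 165 Rag1-positive cells (87.9%) and 522 of 641 γ V cells (81.4%), and Trbc1 and Trbc2 were 1.45-fold (1.11 to 1.88) and 1.38-fold (1.06 to 1.78) higher in CPM, short of 2-fold. After thinning the shares were 58.2% (50.3 to 65.8%) and 43.4% (39.5 to 47.3%). Trbv segments were detected in 45.5% against 39.2% of cells, and in 25.5% against 15.1% after thinning. Trac, the α constant gene, had 10 thinned UMIs against 9, in 12.1% against 11.4% of cells before thinning and 6.06% against 1.40% after it. Among the Trav genes, several of which bear names that mark use by δ chains as well, 33 of 165 Rag1-positive cells and 189 of 641 γ V cells (29.5%) held a UMI before thinning. After thinning the shares were 10.3% (6.12 to 16.0%) and 8.89% (6.80 to 11.4%), with intervals that overlap, so the direction seen at unequal depth did not hold at equal depth. Most Rag1-positive cells held β constant transcripts, and few held α constant transcripts at this depth.

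Trdc, the δ constant gene, stood at 97.0 CPM (8 UMIs) in the Rag1-positive cells and 608 CPM (195 UMIs) in the γ V cells, 6.27-fold lower (3.12 to 14.7). The δ V segment Trdv4 had 1 UMI against 235, 60.5-fold lower with a wide interval of 10.8 to 2399, while Trdv2-2 (72.7 against 153 CPM) had an interval that held 1. Tcrg-C1, Tcrg-C2 and Tcrg-C4 were 18.1-fold (6.11 to 88.5), 9.35-fold (3.12 to 46.1) and 17.8-fold lower (3.08 to 712), on 3, 3 and 1 UMIs. The γ constant genes lie on the same transcripts as the γ V segments, so their low level follows from the rule and is not separate evidence. Of the 7 γδ receptor genes compared, 6 were lower and 0 higher. The 6 include Tcrg-C1, Tcrg-C2 and Tcrg-C4, so that part of the count follows from the rule. The others were Trdc, Trdv4 and Trdv5. The list held 28 thinned UMIs in the Rag1-positive cells and 917 in the γ V cells. It thus met the UMI minimum mostly through the γ V cells, and the count is not separate support. At full depth 56 of 165 Rag1-positive cells (33.9%, 26.8 to 41.7%) still held some Trdv, Trdc or Tcrg-C UMI, against 97.5% of the γ V cells, and 23 (13.9%) held Trdc. No class in this library is known to lack Trdc, so the share that free RNA could give was not measured.

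**Figure D2:**
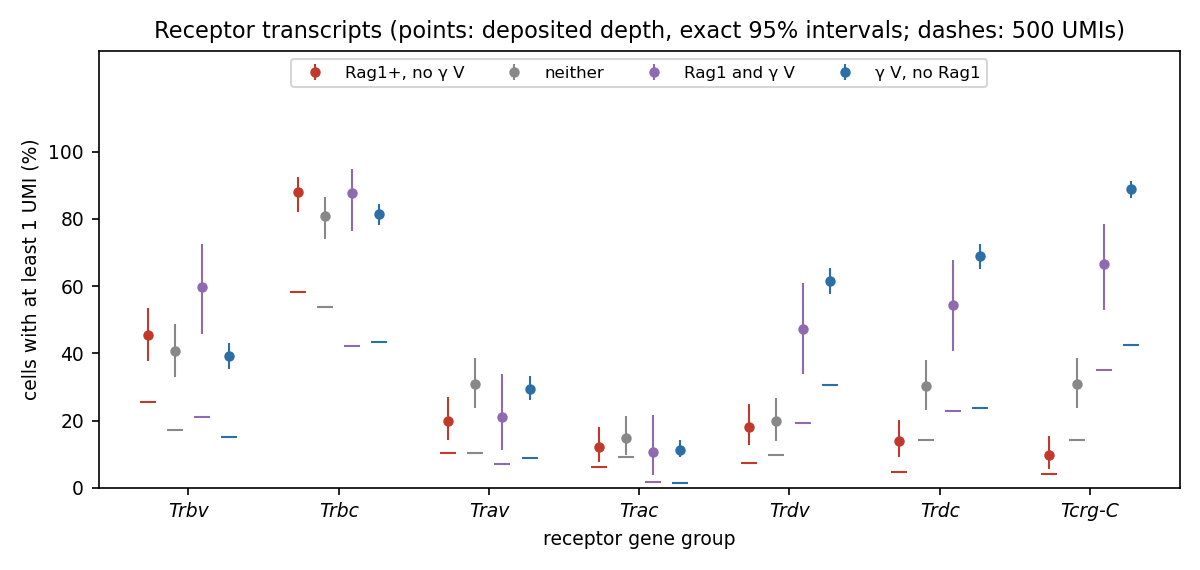
Percent of cells in each of the 4 TMREhi classes with at least 1 UMI of a receptor gene group. Points are at the deposited depth with exact 95% binomial intervals, and dashes are at 500 UMIs per cell, drawn without intervals. At 500 UMIs the Rag1-positive cells without γ V stand above the γ V cells for Trbv (25.5% and 15.1%) and Trbc (58.2% and 43.4%), whereas at the deposited depth Trdc and Tcrg-C are at 13.9% and 9.70% in the Rag1-positive cells without γ V and at 69.0% and 88.9% in the γ V cells.

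The other parts of the receptor complex were mixed. Lck, the kinase bound by CD4 and CD8, was 3.21-fold higher (1103 against 343 CPM). Cd3d (352 against 929.8 CPM, 2.65-fold lower) and the kinase gene Zap70 (3 against 40 UMIs, 3.43-fold lower, 1.09 to 17.3) were lower, and Cd3e and Cd3g lay under 2-fold. For the αβ receptor list as a whole 1 of 10 genes was higher and 2 lower, with a median of 0.33, or -0.10 under 15% ribosomal protein UMIs.

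Genes of γδ effector cells were lower. Of 22 γδ lineage genes compared 13 were lower and 2 higher, median log2 ratio -2.03. The list held 118 thinned UMIs in the Rag1-positive cells and 1668 in the γ V cells, so it met the UMI minimum mostly through the γ V cells. Il7r, the interleukin-7 receptor, stood at 109 against 761 CPM (6.98-fold lower, 3.62 to 15.4) and Cd163l1, a scavenger receptor of γδ cells, at 60.6 against 1098 CPM (18.1-fold lower, 7.69 to 56.2). Before thinning, only 5 Rag1-positive cells held Il7r and 2 held Cd163l1. Maf (5 against 98 UMIs, 5.05-fold lower), the kinase gene Blk (2 against 55, 7.08-fold lower, 1.87 to 59.9) and Rora (4 against 66, 4.25-fold lower) had low counts in the Rag1-positive cells. Sox13 and Il23r had 0 UMIs against 46 and 49, at least 3.95-fold and 4.20-fold lower. Sox4, a factor also expressed in αβ precursors, was among the 2 list genes higher (485 against 209 CPM, 2.32-fold). The list median was -2.56 in cells under 15% ribosomal protein UMIs and -3.39 against γ V cells of nearest depth. Among the 30 Rag1-positive and 250 γ V cells with at most 10% mitochondrial UMIs, however, it was -0.06 over 8 genes, and the medians of the cytotoxic and maturation lists described next were -0.71 and -1.14 over 9 genes each.

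The cytotoxic list was lower in 12 of 13 genes compared, with 0 higher and a median of -3.46 (-3.54 under 15% ribosomal protein UMIs). It held 33 thinned UMIs in the Rag1-positive cells and 1834 in the γ V cells. Its genes thus met the UMI minimum through the γ V cells, and the count is not separate support. Gzma, which encodes granzyme A, stood at 145 against 1551 CPM (10.7-fold lower, 6.05 to 20.8), with up to 261 UMIs in 1 γ V cell and up to 22 in a Rag1-positive cell. Cd7 (1 against 324 UMIs) was 83.4-fold lower with an interval of 14.9 to 3304, Klrd1, the CD94 chain of natural killer receptors, 43.2-fold lower (1 against 168, interval 7.66 to 1718) and Xcl1, the chemokine lymphotactin, 29.1-fold lower (1 against 113, interval 5.12 to 1159). Each of the 12 genes with the lowest ratios had a single thinned UMI in the Rag1-positive cells. A count of 0 was set at 3 UMIs and a count of 1 was left as it was, so genes at 0 UMIs, such as Sox13, rank behind genes at 1, and the make-up of these 12 rests on that floor. Beside Cd7, Klrd1 and Xcl1 they were Vim (vimentin), Runx3 (the factor of CD8 and effector lineages), Srgn (the granule proteoglycan serglycin), S100a6, Nkg7, Cd160, Ahnak, Itgae (the CD103 integrin) and Tyrobp, from 33.5-fold for Vim (5.90 to 1332) to 22.9-fold for Tyrobp (4.01 to 915).

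Genes of maturation and thymic exit were lower in 14 of 18 and higher in 0, median -2.11. This list too met the UMI minimum mostly through the γ V cells, with 89 thinned UMIs in the Rag1-positive cells and 2051 in the γ V cells. The MHC class I heavy chain genes H2-K1 (60.6 against 927 CPM, 15.3-fold lower, 6.48 to 47.4) and H2-D1 (72.7 against 855 CPM, 11.8-fold lower) and their light chain gene B2m (194 against 992 CPM, 5.12-fold lower) went the same way. Ms4a4b had 4 UMIs against 169 (10.9-fold lower), and S1pr1, the exit receptor, 0 against 38 (at least 3.26-fold lower). Cd24a, which encodes the CD24 protein of the sort, had 10 UMIs against 13 and was 2.99-fold higher (1.17 to 7.38).

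**Figure D3:**
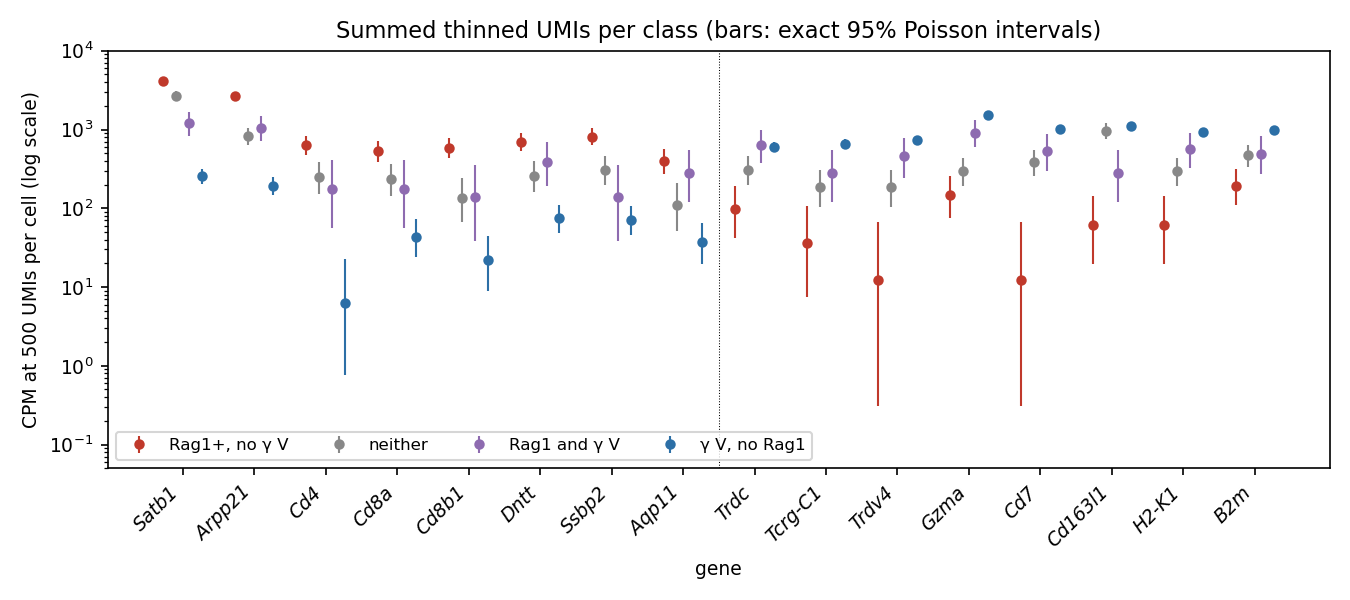
CPM of 16 genes (log scale) from UMIs summed over the cells of each of the 4 TMREhi classes after thinning to 500 UMIs per cell, with exact 95% Poisson intervals. Left of the dotted line the Rag1-positive cells without γ V are above the γ V cells, from Satb1 (4133 against 256 CPM) to Aqp11, and right of it they are below, from Trdc to B2m (194 against 992 CPM), with the other classes mostly between.

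E protein genes were higher. Tcf12 stood at 1673 against 365 CPM (4.58-fold, 3.56 to 5.91) and Tcf3 at 206 against 90.5 CPM (2.28-fold, 1.17 to 4.28). The Id genes had low counts in the Rag1-positive cells: Id3 had 133 against 249.6 CPM and Id2 3 against 34 UMIs, and both intervals held 1. Notch1, the receptor that commits precursors to the T lineage, stood at 848 against 112 CPM (7.55-fold, 4.98 to 11.6). Kit, of earlier precursors, had 3 UMIs against 51 (4.38-fold lower, 1.42 to 21.9), and Il2ra, 2.38-fold higher here, was at 0.96-fold among cells with an Mki67 UMI. For the list of Notch and double-negative stage genes 2 of 7 were higher and 1 lower, median -0.16. Of 8 genes of receptor signalling 3 were lower (Cd69, Ier2 and Pdcd1) and 0 higher. Among survival genes, Bcl2l1, which encodes the Bcl-xL protein of double-positive cells, stood at 255 against 21.8 CPM (11.7-fold, 4.77 to 32.5), while Bcl2 was 4.08-fold lower (72.7 against 296 CPM, 1.81 to 11.4). Of 5 survival genes 2 were higher and 2 lower, median 0.74, and under 15% ribosomal protein UMIs 2 were higher and 1 lower, median 0.21.

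Proliferation transcripts were more frequent in the Rag1-positive cells than in the γ V cells at equal depth. Mki67, the gene of the Ki-67 antigen of dividing cells, was detected after thinning in 29.1% of them (22.3 to 36.7%) and 15.0% of the γ V cells, and stood at 1115 against 502 CPM (2.22-fold, 1.70 to 2.89). Before thinning the shares were 42.4% and 36.8%. Against the 165 γ V cells nearest in depth (median 1190 UMIs), at the deposited counts, the share was 42.4% to 21.8%. Top2a, the mitotic topoisomerase, was 2.78-fold higher (1685 against 605 CPM) and Cenpf, a kinetochore gene, 2.72-fold. This was not particular to these cells. Mki67 stood at 864 CPM in the cells with neither transcript and 772 CPM in those with both, and Top2a at 889 and 1579 CPM. The G2/M list held 18 higher and 0 lower among 36 compared, median 1.0, against 14.5% higher over all genes, and with nearest depth 43 of 47 were higher. S phase genes stood nearer to all genes, with 5 of 27 higher (Pcna 2.28-fold), 1 lower and a median of 0.23. This did not hold among cells with at most 10% mitochondrial UMIs, where the thinned Mki67 share was 6.67% of the 30 Rag1-positive cells (0.818 to 22.1%), below the 9.6% of the 250 γ V cells, and the G2/M median was -0.01.

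Nuclear genes of oxidative phosphorylation were lower in 21 of 45 and higher in 0 at 500 UMIs per cell, median -1.01, but this did not hold in cells of like ribosomal share or depth. Under 15% ribosomal protein UMIs 1 of 35 was lower and 1 higher, median -0.13, and against γ V cells of nearest depth 2 of 46 were lower, median -0.0039. These 2 comparisons overlap, as 146 of the 165 γ V cells of nearest depth lay under 15%. With at most 10% mitochondrial UMIs 16 of 41 were still lower, median -1.55. So were 13 of 41 among cells with an Mki67 UMI (-1.17) and 14 of 43 among those without (-1.02). Cox8a, a subunit of complex IV, was 2.01-fold lower at 500 UMIs (352 against 708 CPM) and level with the γ V cells of nearest depth (654 against 666 CPM). The 13 mitochondrially encoded genes had 0 past 2-fold, median 0.10, or -0.40 under 15% ribosomal protein UMIs. Glycolysis genes were lower in 6 of 13, median -1.09, and in 3 of 11 under 15% ribosomal protein UMIs, median -0.79. Against γ V cells of nearest depth 2 of 14 were lower and 1 higher, median -0.20. Ldha, lactate dehydrogenase, was 2.27-fold lower (279 against 633 CPM).

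**Figure D4:**
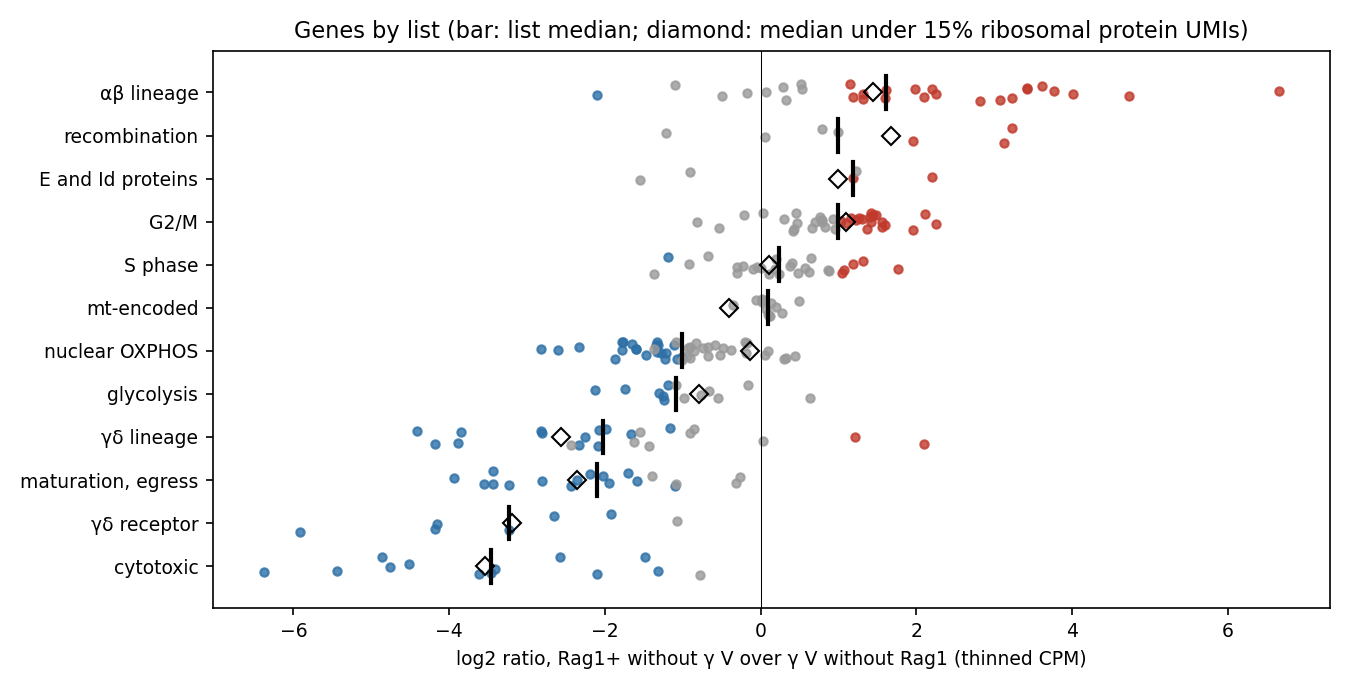
Log2 ratio of thinned CPM, Rag1-positive cells without γ V over γ V cells, for each gene compared in 12 lists. The γδ receptor list includes γ constant genes, whose low level follows from the rule. Red and blue points are past 2-fold higher and lower with an interval excluding 1, grey points are not, bars are list medians and diamonds are medians among cells under 15% ribosomal protein UMIs: bar and diamond lie close for the αβ lineage (1.61 and 1.44) and apart for nuclear OXPHOS (-1.01 and -0.13).

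Within the Rag1-positive cells, 70 held an Mki67 UMI and 95 did not. The first were deeper, with a median of 2249.5 UMIs against 800. At 500 UMIs per cell 715 genes could be compared, of which 79 (11.0%) were past 2-fold higher in cells with Mki67 and 69 (9.65%) lower, median -0.09. The division genes stood together: 12 of 15 G2/M genes, 4 of 5 S phase genes and 3 of 4 histone genes were higher and 0 lower. Top2a led with 3714 against 189 CPM (19.6-fold, 10.0 to 43.8), followed by the chromatin protein gene Hmgb2 (3400.0 against 316 CPM, 10.8-fold), the tubulin gene Tubb5 (6.48-fold), Anp32e (6.11-fold), Ptma (3.53-fold), the condensin gene Smc4 (3.34-fold), the histone gene Hist1h2ap (3.30-fold) and Ppia (2.90-fold).

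In the same split 8 of 19 αβ lineage genes were lower in the cells with Mki67 and 0 higher, median -0.90. Satb1 stood at 2286 against 5495 CPM (2.40-fold lower), Cd4 at 314 against 863 CPM (2.75-fold lower), Arpp21 at 1571 against 3432 CPM (2.18-fold lower) and Themis at 1086 against 2421 CPM (2.23-fold lower), and Cd8b1, Aqp11, Ets2 and Ccr9 were the others. Rag1, which the rule used, was at 1114 against 3474 CPM. The direction did not hold among deeper cells. With at least 1000 genes detected, where 54 cells with and 10 without an Mki67 UMI could be thinned to 1500 UMIs, the ratio was 1.35 for Satb1 (0.90 to 2.13), 0.88 for Arpp21 (0.58 to 1.38) and 7.13 for Themis (1.91 to 59.9), so depth and the Mki67 split cannot be told apart for these genes. Top2a was 19.8-fold higher in those deeper cells. In the ranking of all genes the lowest ratios were those of Pag1 (200.0 against 989 CPM, 4.95-fold lower), Rsrp1 (4.55-fold), Etnk1 (4.42-fold), Ogt (3.50-fold), Camk4 (3.42-fold), Tmsb4x (3.32-fold), Abcc5 (3.13-fold) and Znrf1 (3.07-fold, higher by 1.14 on the log2 scale at 1000 genes). Trbc1 and Trbc2 were alike on both sides of the split, at 1.23-fold (0.78 to 1.94) and 0.99-fold (0.62 to 1.56). In the deposited counts, Cd4 together with Cd8 was detected in 24 of 70 cells with Mki67 (34.3%) and 34 of 95 without (35.8%). These cells with both coreceptors had median depths of 1945.5 and 779.5 UMIs. The shares were not thinned, so they do not compare the sides of the split at equal depth.

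**Figure D5:**
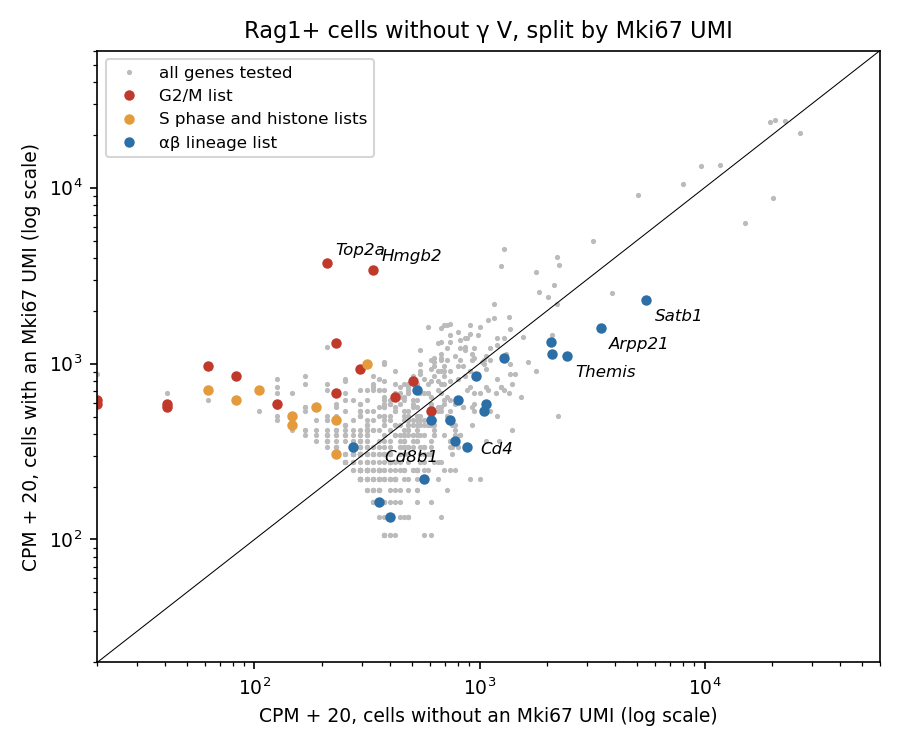
CPM plus 20 of each of 715 genes, both axes on log scales, summed over the 70 Rag1-positive cells with an Mki67 UMI (vertical) and the 95 without (horizontal) at 500 UMIs per cell. G2/M genes such as Top2a and Hmgb2 lie above the diagonal and most αβ lineage genes below it, which among cells with at least 1000 genes held for Top2a and not for Satb1.

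The cells were also grouped by their count of Rag1, the value that selected them, so the levels in these groups are descriptions only. Cd4 stood at 333 CPM (144 to 657) in the 48 cells with 1 Rag1 UMI, 596 CPM (326 to 999.6) in the 47 with 2 and 857 CPM (578 to 1224) in the 70 with 3 or more. Satb1 stood at 3250, 3234 and 5343 CPM, and Cd8a at 542, 511 and 543 CPM. Cd4 intervals for 1 and for 3 or more UMIs overlap, and those of Satb1 for 3 or more UMIs lie above both others. Median depth went the other way (1469, 1386 and 1006 UMIs), so a higher count of Rag1 came with fewer UMIs per cell. Trdc stayed between 83.3 and 128 CPM in the 3 groups.

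Neighbouring classes lay between these cells and the γ V cells for many genes. Ptcra was an exception, found in 35.1% of the deeper cells with both transcripts and 18.8% of the Rag1-positive cells without γ V. After thinning it stood at 175 CPM (57.0 to 409) and 121 CPM (58.1 to 223), with intervals that overlap. Of the 57 cells with both transcripts, the 13 with a single γ V UMI had Satb1 at 2615 CPM (1524 to 4187) and Cd4 in 38.5% of cells, while the 44 with 2 or more had Satb1 at 773 CPM (450.1 to 1237) and Cd4 in 4.55%. Tcrg-C1 was found in 0 of the 13, which allows a share of up to 24.7% by the exact interval, and in 59.1% of the 44, although these shares were not thinned. The 162 cells with neither transcript had Satb1 at 2691 CPM and Cd4 at 247 CPM, but also Cd163l1 at 963 CPM, against 60.6 in the Rag1-positive cells. This class held transcripts of both kinds.

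Defining markers of B cells, erythroid cells, thymic epithelium and dendritic cells were mostly at 0, whereas myeloid and natural killer markers were detected. In the deposited counts of the 165 cells, 5 of 6 B cell markers (Cd79a, Ms4a1, Ebf1 and Pax5 among them) and all 5 erythroid markers had 0 UMIs, as did 4 of 5 of thymic epithelium and 3 of 4 of dendritic cells. Of the 6 myeloid markers Itgam was at 0, and the other markers gave 72 UMIs in 7 cells, or 237 CPM against 330.0 in the γ V cells. After thinning the myeloid list stood at 133 against 593 CPM. Its genes Fcer1g and Tyrobp, which are also in the cytotoxic list, were past 2-fold lower. Natural killer and innate lymphoid markers gave 158 CPM against 514 in the deposited counts and 194 against 930 after thinning. Before thinning they were found in 32 of the 165 cells, with Ncr1 and Eomes at 0 and Gata3, a T cell factor as well, in 25 cells. Their part in the results was not tested. Of the label genes, Rag1 was set by the rule, Cd4 and Satb1 were higher as described, and Ptcra rested on 31 cells.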

How the data were processed

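The deposited counts are unnormalised whole numbers of UMIs for each gene in each barcode of a library. They were made with Cell Ranger 3.0.2 per the file headers, and build mm10 and Cell Ranger 3.0 are named in the submitters' processing notes. Annotation release and cell calling settings: not given in the sources used here. TMREhi held 1202 barcodes with 4350485 UMIs and TMRElo 196 with 245048.

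The set of cells and all 23 gene lists were chosen with earlier results of these data known. Cells with at least 500 genes entered, with no limit on mitochondrial UMIs. Each was thinned without replacement to 500 UMIs (seed 1), the largest of 5 candidate depths that at least 80% of both groups reached, and UMIs were summed and scaled to CPM. Intervals are exact at 95%: Poisson for CPM, conditional binomial for ratios, Clopper-Pearson for shares. Genes needed 20 UMIs over both groups, rule genes were left out, and a count of 0 was set at 3 UMIs per group. CPM are not scaled for transcript length, so levels are compared within a gene. Named genes were the label and rule genes, 22 receptor, lineage and marker genes, up to 6 genes per list by UMIs, and the 12 highest and lowest ratios (8 for the Mki67 split) with at least 40 UMIs, leaving out mitochondrial, ribosomal, receptor, immunoglobulin, globin and unnamed genes; other list genes are named where a count covers them. Scrublet (scanpy 1.11.5) called 6 of 1025 cells doublets (0.585%), none of them Rag1-positive without γ V, and they were kept. The ratio intervals were tried on simulated counts drawn independently for each gene, as the intervals assume. Those counts hold no variation between cells, so the trial does not show how the calls hold under it. Python 3.11.15, numpy 2.4.6, scipy 1.17.1 and pandas 2.3.3 were used. The alternatives cover depth, random draw, gene, mitochondrial and ribosomal limits, CPM totals, doublets, the Rag1 count, the deepest cell, the UMI filter and the Mki67 state. Comparison with γ V cells nearest in depth was chosen after seeing the data. Some items are not reported here.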

Additional observations from a re-analysis of the deposited data

Results flagged for a closer look

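Among the 177 TMREhi barcodes with under 500 genes, which no comparison used, 74 held a Rag1 UMI and no γ V UMI (41.8%, exact interval 34.5 to 49.4%), against 0 of 63 in TMRElo, which allows up to 5.69%. The gene minimum therefore left out barcodes that met the rest of the rule. Among the 162 TMREhi cells with neither Rag1 nor γ V UMIs, 16.7% held a Cd4 UMI (27 cells, 11.3 to 23.3%), above the 0.624% of the γ V cells.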

How the results depend on the processing

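In 15 settings the αβ lineage median stayed above 0 and the γδ lineage median below 0, and 0 of the 996 genes past 2-fold passed in the other direction. The number past 2-fold was 2861 without thinning, 517 at 250 UMIs per cell, 471 with at least 1000 genes, 336 with at most 10% mitochondrial UMIs, 602 under 15% ribosomal protein UMIs, 523 with a minimum of 50 UMIs and 341 in cells with Mki67. A second random draw shared 365 of 567 higher and 317 of 429 lower genes. The αβ median was 3.06 with at most 10% mitochondrial UMIs. The γδ median was -1.67 at 250 UMIs, -1.27 with 1000 genes, -0.056 with the mitochondrial limit and -1.53 with at least 2 Rag1 UMIs. The Mki67 share was 42.4% without thinning and at nearest depth, 18.8% at 250 UMIs, 54.5% with 1000 genes and 6.67% with the mitochondrial limit, against 9.6% of the γ V cells there. The Mki67 split gave 148 genes, or 807 without thinning, 54 at 250 UMIs, 15 with 1000 genes, 24 with the mitochondrial limit, 37 with a minimum of 50 UMIs and 343 with one of 5. The cells numbered 66 with 1000 genes and 30 with the mitochondrial limit. Of 1359 gene values recomputed, 1165 stayed, 185 moved and 9 turned: on the log2 scale, Anp32e -0.82 and Kit 0.47 with the mitochondrial limit, Atp5g3 0.035 at 250 UMIs and 0.20 at nearest depth, Hells 0.064 without thinning, Il2ra -0.50 at 250 UMIs and -0.054 in cells with Mki67, Mcl1 -0.00021 at nearest depth and, in the split, Znrf1 1.14 with 1000 genes. For the Mki67 split this tally covers only the 16 genes ranked highest or lowest. The αβ lineage genes of the split are not in it, and values of Satb1, Arpp21 and Themis in deeper cells are given with the split. The median over all genes moved from 0.13 to 0.34 without thinning and to -0.02 without mitochondrial and ribosomal protein genes. Fewer cells or UMIs enter most of these settings, and the cause of each change was not tested. No paired analysis was possible because each fraction is 1 library and the comparison is within one. One thinned UMI in the Rag1-positive cells is 12.1 CPM, which limits what can be compared there.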
